A study of Mus musculus with 23 samples.

Results

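The HOX cluster genes were described in total RNA sequencing of sorted mouse plasma cells and myeloma cells. The members are the gene symbols made of Hox, a cluster letter from a to d and a number, and 39 of the 24063 listed symbols fit this rule. In mouse build GRCm38 the HOXA cluster holds 11 of them on chromosome 6, HOXB 10 on chromosome 11, HOXC 9 on chromosome 15 and HOXD 9 on chromosome 2. The annotated genes of each cluster lie within 105.5, 173.9, 115.7 and 96.9 kb of genome for HOXA, HOXB, HOXC and HOXD.

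HOX genes encode homeodomain transcription factors that specify position along the body axis, and their order on the chromosome follows the order in which they are used in the embryo. HOX proteins bind DNA together with PBX and MEIS family cofactors, trithorax group enzymes such as KMT2A keep the clusters active, and Polycomb complexes keep them silent. In blood formation, genes of the HOXA and HOXB clusters are used in stem and progenitor cells and are turned down as cells mature. Their renewed use, above all of HOXA genes with Meis1, is known from acute leukaemias.

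The study holds 23 libraries of CD138+B220- cells in 6 groups. The 4 VQ groups, numbered D1, D2, D4 and D5, carry Vκ*MYC, NrasLSL Q61R/+ and IgG1-Cre, the line t-VK12653 carries Vκ*MYC without the other alleles, and Control mice carry IgG1-Cre only. Vκ*MYC is a MYC transgene under immunoglobulin kappa control that becomes active in germinal centre B cells, and IgG1-Cre removes the stop cassette of the Nras allele in B cells that express the IgG1 constant region. Each tumour group has 4 libraries of transplanted cells from 1 donor, collected from 2 recipients by the recipient numbers, so n = 4 counts libraries and not donors. VQ-D1 and t-VK12653 were sampled from bone marrow (BM) and spleen, VQ-D2 from spleen and lymph node (LN), VQ-D4 from the liver as well as marrow, spleen and lymph node, and VQ-D5 from bone marrow and lymph node. The Control group has 3 bone marrow libraries, and nothing in the labels says that these cells were transplanted or that the mice are separate animals. Ages were not among the labels used here.

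Depth was 3179578 to 10047314 counts in the 20 tumour libraries, against 2685579 to 3790134 counts in the Control libraries. None of the 10 plasma cell markers on a fixed list was at 0 reads in any group, and their summed level was 4602 to 15790 CPM (read counts scaled to library depth with TMM factors, not to gene length) in tumour libraries, against 35150 to 65250 CPM in Control libraries. Markers of several other marrow cell types were higher in Control libraries. Neutrophil markers summed to 3.68 to 1009 CPM in tumour libraries, against 2940 to 7963 CPM in Control libraries. Haematopoietic progenitor markers summed to 3.25 to 204 CPM in tumour libraries, against 464 to 1213 CPM in Control libraries. Monocyte and macrophage markers overlapped Control in 3 lines, with 751 to 1387 CPM in t-VK12653, 552 to 1463 CPM in VQ-D4 and 512 to 771 CPM in VQ-D1, against 468 to 1511 CPM in Control libraries. In such bulk RNA, fewer cells of a type and less RNA per cell cannot be told apart.

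Promoter sequence is shown for the 4 genes that mark the patterns described below: Hoxc4, shared by 3 tumour lines, Hoxa7 and Hoxd8, high in t-VK12653, and Hoxb4, at most at 0.478 CPM in a tumour library, against 2.62 CPM or more in each Control library. The sequences are from RefSeq (GRCm38.p6), run 5′ to 3′ on the strand of the gene from 250 bases before to 50 bases after the start that the RefSeq promoter entry uses, and capitals mark the CCAAT box, written CCAAT or, on the other strand, ATTGG. The windows are chr15:103034145-103034444 on the plus strand for Hoxc4, chr6:52218524-52218823 on the minus strand for Hoxa7, chr2:74704365-74704664 on the plus strand for Hoxd8 and chr11:96318017-96318316 on the plus strand for Hoxb4. For Hoxc4 that start lies 16298 bases inside the annotated gene, whose outer start is at 103018097, and for the other 3 it is the outer start of the gene.

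Hoxc4: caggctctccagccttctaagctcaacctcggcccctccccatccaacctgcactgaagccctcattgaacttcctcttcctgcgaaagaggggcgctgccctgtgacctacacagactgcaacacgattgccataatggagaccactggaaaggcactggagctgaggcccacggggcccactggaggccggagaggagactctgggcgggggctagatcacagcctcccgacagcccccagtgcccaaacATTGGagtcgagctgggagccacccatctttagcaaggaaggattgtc
Hoxa7: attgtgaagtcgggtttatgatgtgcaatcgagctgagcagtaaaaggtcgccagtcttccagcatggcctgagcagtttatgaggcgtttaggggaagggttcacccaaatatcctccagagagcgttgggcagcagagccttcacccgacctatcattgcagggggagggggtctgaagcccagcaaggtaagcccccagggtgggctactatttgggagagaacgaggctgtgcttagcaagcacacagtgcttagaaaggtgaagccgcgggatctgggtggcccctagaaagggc
Hoxd8: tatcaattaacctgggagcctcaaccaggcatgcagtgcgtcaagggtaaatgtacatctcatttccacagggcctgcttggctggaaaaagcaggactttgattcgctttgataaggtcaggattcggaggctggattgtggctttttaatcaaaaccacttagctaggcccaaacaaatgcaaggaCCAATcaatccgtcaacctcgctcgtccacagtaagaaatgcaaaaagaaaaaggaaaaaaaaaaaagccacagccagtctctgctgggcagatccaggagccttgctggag
Hoxb4: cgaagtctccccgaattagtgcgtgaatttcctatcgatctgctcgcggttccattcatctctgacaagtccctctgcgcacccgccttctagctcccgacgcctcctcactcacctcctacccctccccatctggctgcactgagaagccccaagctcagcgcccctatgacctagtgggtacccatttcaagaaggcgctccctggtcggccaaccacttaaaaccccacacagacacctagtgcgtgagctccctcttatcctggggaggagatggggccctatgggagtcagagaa

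CCAAT on either strand was found 1 time in the window of Hoxc4 and 1 time in that of Hoxd8, and was not among the letters of the Hoxa7 and Hoxb4 windows. Of all 32851 promoter entries, 37.4% hold it, and so do those of 15 of the 22 members that have an entry. The GC box letters GGGCGG, searched the same way on both strands, are in 35.7% of all promoters and in those of 10 members, Hoxc4 among them. The letters TGATNNAT, which HOX and PBX proteins bind together in vitro, are in 8.85% of all promoters and in those of 4 members: Hoxa2, Hoxb1, Hoxb8 and Hoxd11. None of the 4 printed windows holds TGATNNAT. CG dinucleotides, the letters of CpG islands, number a median of 14.5 in the 24 entries of members and 7 over all entries.

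A gene was called on in a group when it had at least 1 CPM in every library of that group, off when all libraries of the group together had 3 reads or fewer, and low or uneven otherwise. By this rule 8 members were on in t-VK12653, 2 in VQ-D1, 1 in VQ-D4 and 0 in VQ-D2 and in VQ-D5, against 5 in Control. Over all listed genes, 45.1% were on in t-VK12653, 45.0% in VQ-D1, 43.8% in VQ-D4, 44.9% in VQ-D2, 44.1% in VQ-D5 and 48.4% in Control. The 39 members were thus on less often than listed genes at large in each of the 6 groups.

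The members on in t-VK12653 were Hoxa3, Hoxa5, Hoxa6, Hoxa7, Hoxc4, Hoxd3, Hoxd4 and Hoxd8. In VQ-D1 they were Hoxb13 and Hoxc4, and in VQ-D4 Hoxc4 was on with no other member. In Control they were Hoxa5, Hoxa6, Hoxa7, Hoxb4 and Hoxd3. Hoxc4 was on in 3 groups, Hoxa5, Hoxa6, Hoxa7 and Hoxd3 in 2 (t-VK12653 and Control), and the other 5 in 1 group each. Of the 10 members on somewhere, 9 have paralog numbers 3 to 8, out of 18 members so numbered, and Hoxb13 is the only one of the 16 members numbered 9 to 13. No member numbered 1 or 2 was on in any group.

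**Figure D1:**
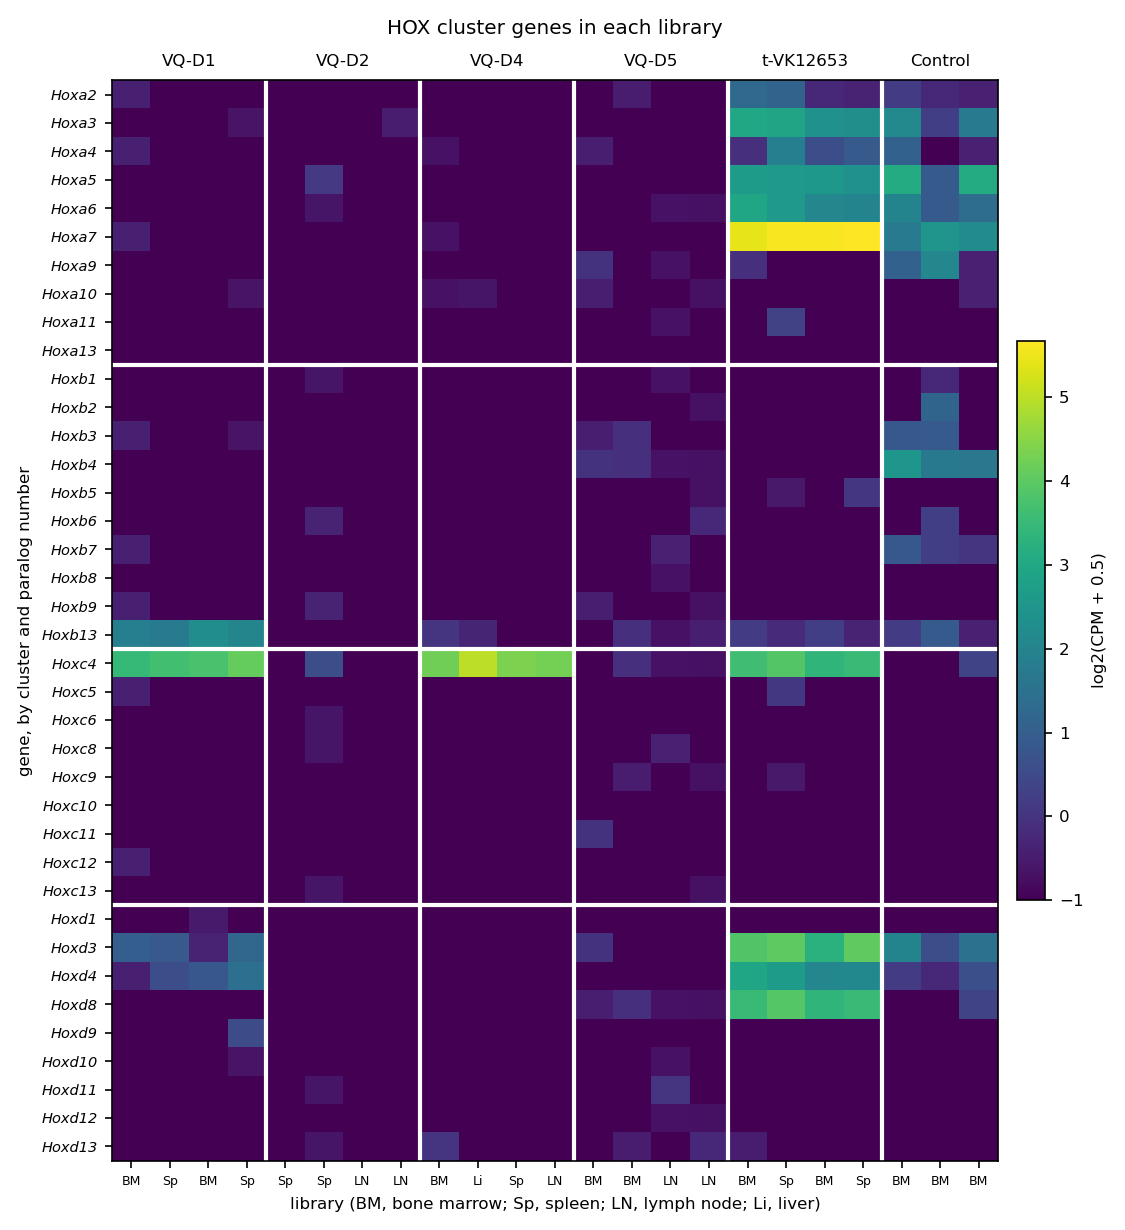
Level of HOX cluster genes (rows, by cluster and paralog number) in the 23 libraries (columns, by group and tissue), coloured by log2(CPM + 0.5). The bright rows are Hoxa3, Hoxa5, Hoxa6, Hoxa7, Hoxc4, Hoxd3, Hoxd4 and Hoxd8 in t-VK12653 and Hoxc4 in VQ-D1 and VQ-D4, while VQ-D2 and VQ-D5 are near the lowest colour throughout.

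Summed over the 39 members, the level was 17.5, 17.4, 19.1 and 26.0 CPM in the VQ-D1 libraries, 0, 3.62, 0 and 0.215 CPM in VQ-D2, 19.7, 32.3, 20.1 and 18.8 CPM in VQ-D4 and 3.11, 2.98, 2.75 and 2.21 CPM in VQ-D5. In t-VK12653 it was 111, 124, 97.6 and 108 CPM, against 35.0, 22.8 and 27.5 CPM in Control. Every t-VK12653 library lay above every Control library, every VQ-D2 and VQ-D5 library lay below them, and the ranges of VQ-D1 and VQ-D4 overlapped that of Control.

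The clusters behind these sums differed by group. In t-VK12653, 60.3% of HOX reads came from HOXA and 28.1% from HOXD, while in VQ-D4 97.1% came from HOXC. HOXC also gave 66.6% of the HOX reads in VQ-D1, with 18.7% from HOXB and 13.5% from HOXD. In Control, HOXA gave 63.9% and HOXB 23.2% of the 280 HOX reads, and HOXC gave 1.07%.

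In both libraries of the first VQ-D2 recipient, from spleen and lymph node, not a single HOX read was counted. In the second recipient's libraries, 25 reads spread over 12 members in spleen and 1 read fell in Hoxa3 in lymph node. Across VQ-D5, 66 reads were spread over 28 members, and the highest level of any member in a VQ-D5 library was 0.523 CPM (Hoxd11).

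**Figure D2:**
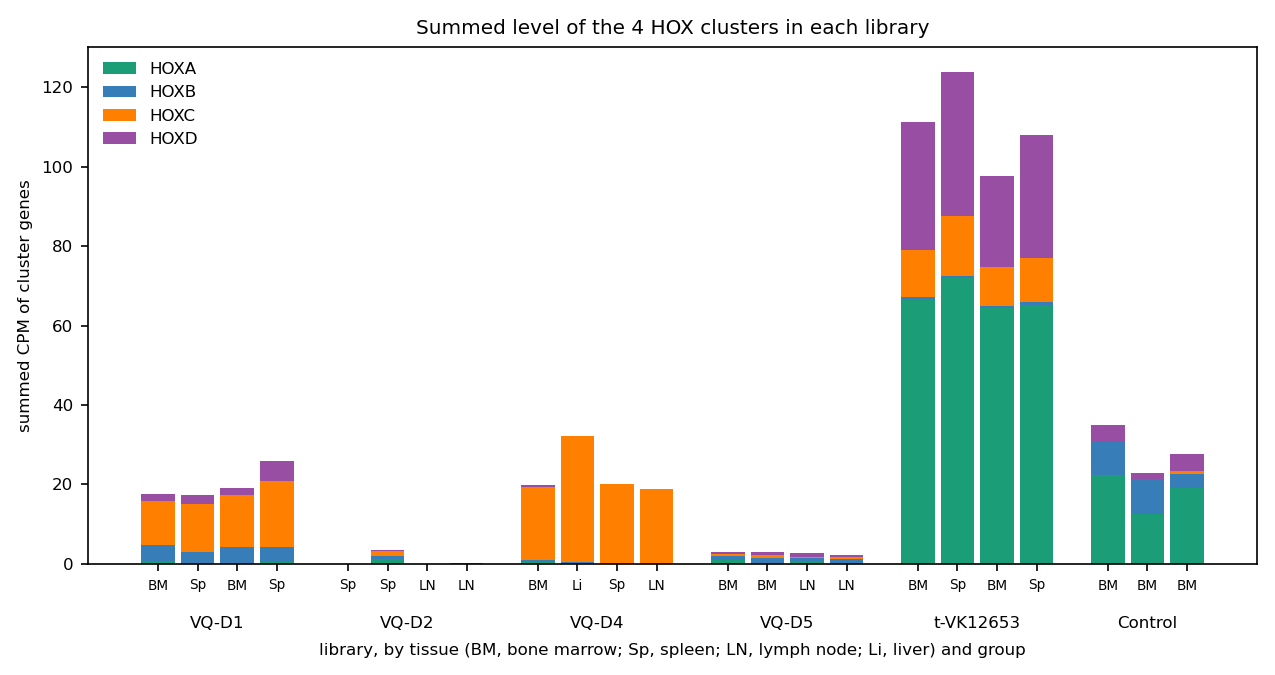
Summed CPM of the HOXA, HOXB, HOXC and HOXD genes (stacked bars) in each library, grouped by line with tissue labels; CPM is not scaled to gene length. The t-VK12653 bars reach 97.6 to 124 CPM and are mostly HOXA and HOXD, the VQ-D4 bars are almost wholly HOXC, and 2 VQ-D2 libraries have no HOX read.

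The tests came from a fit of all 23 libraries with terms for group and tissue (edgeR's quasi-likelihood test, Benjamini-Hochberg adjustment over all 12867 tested genes, called at an adjusted p under 0.05). All tumour lines were compared with the same 3 Control libraries. VQ-D2 has no bone marrow library, so its comparison with Control rests on tissue terms that are fitted with the other lines. Of the 39 members, the 10 that were on in some group passed the filter on low counts and 29 did not. A member that passes through the group where it is high is bound to differ between groups, so the counts of calls describe these genes and say nothing of the other 29.

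Among the 5 tumour lines, 9 of the 10 tested members differed, all but Hoxb4, where 88.1% of all tested genes did. Against Control, 5 members rose and 1 fell in t-VK12653, where 28.8% of all tested genes rose and 28.1% fell. In VQ-D1, 2 rose and 6 fell (29.7% and 29.6% of all tested genes). In VQ-D2, 0 rose and 7 fell (29.6% and 27.8%). In VQ-D4, 1 rose and 7 fell (27.5% and 26.8%). In VQ-D5, 0 rose and 7 fell (31.2% and 32.5%). In VQ-D2 and VQ-D5 no member was higher at an unadjusted p under 0.05 in edgeR either, and DESeq2 also called 0 higher.

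Hoxc4 was the member that most tumour lines shared. In mouse germinal centre B cells its product activates the gene for the antibody-diversifying enzyme AID. Hoxc4 was at 10.6, 12.2, 13.02 and 16.7 CPM in VQ-D1, at 18.4, 31.8, 20.1 and 18.8 CPM in VQ-D4 and at 11.8, 14.5, 9.82 and 10.9 CPM in t-VK12653, against 0, 0 and 0.787 CPM in Control. All 12 of these tumour libraries lay above all Control libraries. In VQ-D2 the values were 0, 1.01, 0 and 0 CPM, and in VQ-D5 they were 0, 0.458, 0.131 and 0.116 CPM, which overlapped Control.

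Control held 3 Hoxc4 reads, all in 1 library, so the folds are given as ratios of pooled CPM with a 95% interval for counting error. The ratio to Control was 44.1 (15.0 to 215) in VQ-D1, 75.1 (25.6 to 366) in VQ-D4 and 39.7 (13.4 to 194) in t-VK12653. The adjusted p by edgeR's quasi-likelihood test was 1.33e-06 in VQ-D1, 4.07e-07 in VQ-D4 and 2.80e-06 in t-VK12653. In VQ-D2 and VQ-D5 Hoxc4 did not pass the test against Control (adjusted p = 0.948 and 0.668 by the same edgeR fit).

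The 3 lines with Hoxc4 on did not differ from each other past the threshold. The fitted log2 difference was −0.67 (SE 0.38) for VQ-D1 minus VQ-D4, 0.16 (SE 0.33) for VQ-D1 minus t-VK12653 and 0.83 (SE 0.38) for VQ-D4 minus t-VK12653, with adjusted p of 0.159, 0.716 and 0.0779 in edgeR. Per length, Hoxc4 was at 16.2 ± 3.37 TPM (the deposited values, which are scaled to gene length) in VQ-D1, 23.9 ± 7.68 TPM in VQ-D4 and 11.8 ± 2.52 TPM in t-VK12653 (SD, n = 4 each), against 0.319 ± 0.553 TPM in Control (SD, n = 3).

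Hoxc4 stood alone in its cluster. The other 8 HOXC genes were off in all 6 groups, and no library held more than 3 reads of any of them. The highest Hoxc4 value came from the liver library of VQ-D4, which also had the highest sum of stromal and endothelial markers (748 CPM) and of hepatocyte markers (40.0 CPM) of all libraries. In the other VQ-D4 libraries, stromal and endothelial markers summed to 28.8 to 46.8 CPM with Hoxc4 at 18.4 to 20.1 CPM. In VQ-D1 those markers summed to 363, 320, 124 and 121 CPM, each above the 53.2 to 70.1 CPM of the Control libraries. Of the 5 tested, 1 rose in VQ-D1 against Control (Pecam1, log2 fold change 2.54) and 1 fell (Cdh5, −4.51), where 29.7% of all tested genes rose and 29.6% fell. The median of the 5 was −0.498. The part of stromal and endothelial cells in the Hoxc4 level of VQ-D1 was not tested. In the VQ-D2 and VQ-D5 libraries, those markers were at 19.4 to 42.3 CPM with Hoxc4 at 0 to 1.01 CPM.

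**Figure D3:**
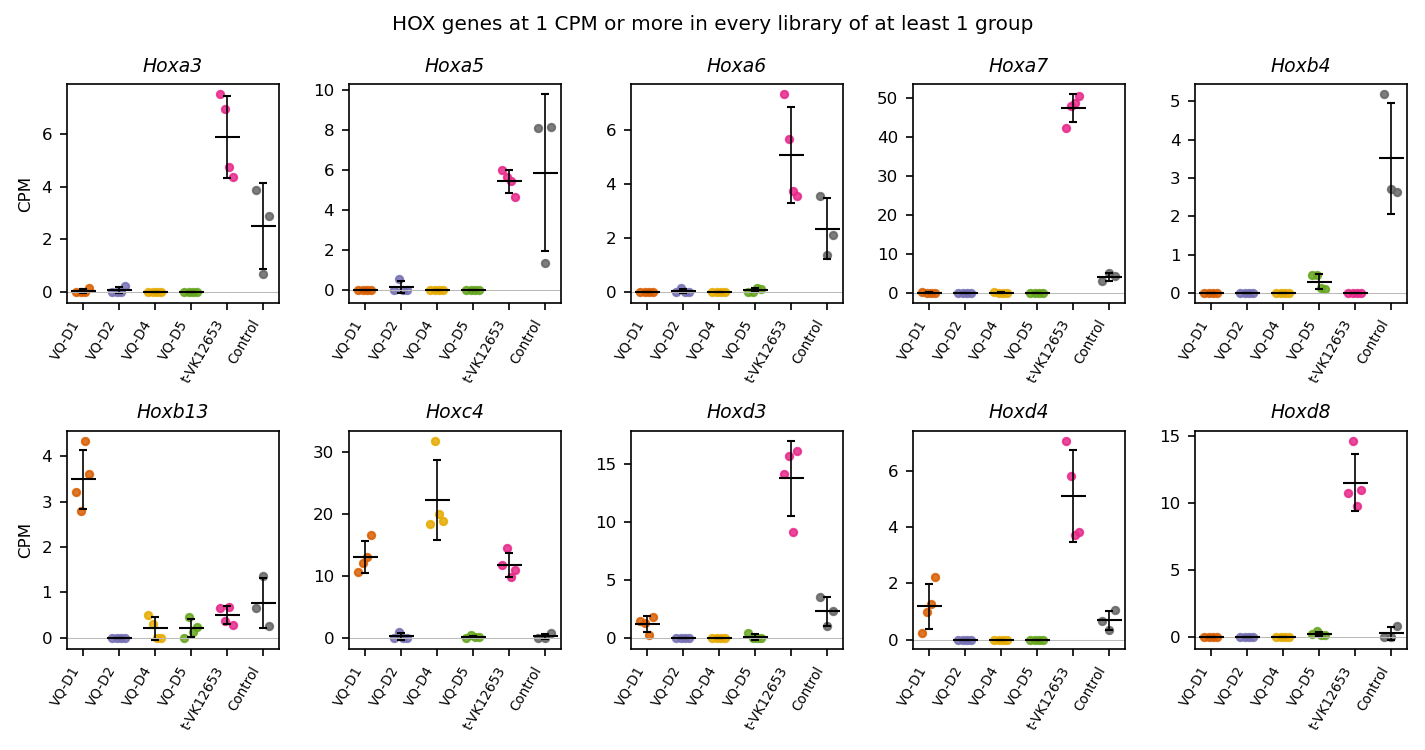
CPM of the 10 HOX genes that were on in at least 1 group, with 1 point per library and the mean ± SD of each group in black (n = 4 per tumour line, n = 3 for Control); each panel has its own linear axis. Hoxc4 is high in VQ-D1, VQ-D4 and t-VK12653, Hoxb13 in VQ-D1, Hoxb4 in Control, and the other genes in t-VK12653 or in t-VK12653 and Control.

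Hoxa7, a gene that leukaemias with KMT2A fusions are known to express with Hoxa9, had the highest length-scaled level of any member in any group. It was at 42.5, 48.1, 48.8 and 50.6 CPM in t-VK12653, against 2.91, 5.11 and 4.20 CPM in Control. The groups did not overlap, and the fitted log2 fold change was 3.51 (SE 0.35, adjusted p = 2.998e-07 in edgeR), a ratio of pooled CPM of 11.6. In the 16 VQ libraries together 2 Hoxa7 reads were counted, 1 in VQ-D1 and 1 in VQ-D4. The gene was at least 31.8-fold lower in VQ-D2 and at least 33.6-fold lower in VQ-D5 than in Control, taking 3 reads per line as the bound for a line at 0.

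The neighbours of Hoxa7 followed another order. Hoxa3, needed for thymus and parathyroid formation, was at 7.51, 6.95, 4.74 and 4.38 CPM in t-VK12653, against 3.88, 0.681 and 2.89 CPM in Control. Hoxa6 was at 7.30, 5.63, 3.73 and 3.56 CPM in t-VK12653, against 3.56, 1.36 and 2.10 CPM in Control. Hoxa5, which takes part in lung and vertebral development, was at 6.01, 5.63, 5.42 and 4.65 CPM in t-VK12653, against 8.09, 1.36 and 8.13 CPM in Control.

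Every t-VK12653 library exceeded every Control library for Hoxa3, and for Hoxa6 3 of the 4 did (the lowest and Control's highest were both 3.56 CPM), while the Hoxa5 values of t-VK12653 lay within the range of Control. None of the 3 passed the test for t-VK12653 minus Control. The log2 fold change was 1.25 (SE 0.70, adjusted p = 0.143) for Hoxa3, 1.17 (SE 0.65, adjusted p = 0.138) for Hoxa6 and −0.09 (SE 1.44, adjusted p = 0.968) for Hoxa5 by edgeR. Per length the order in t-VK12653 was Hoxa7 at 47.8 ± 1.79 TPM, Hoxa6 at 14.7 ± 6.87 TPM, Hoxa5 at 5.77 ± 1.24 TPM and Hoxa3 at 4.67 ± 1.72 TPM (SD, n = 4). The last 2 lay within their spread. In Control, Hoxa6 was at 8.12 ± 3.89 TPM, Hoxa5 at 7.57 ± 5.02 TPM, Hoxa7 at 5.07 ± 1.39 TPM and Hoxa3 at 2.37 ± 1.56 TPM (SD, n = 3), and neighbours in that order lay within their spread.

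In the VQ lines all 4 of these HOXA genes fell against Control in every line. The 16 VQ libraries held 2 reads of Hoxa3, 4 of Hoxa5, 3 of Hoxa6 and 2 of Hoxa7, and the 4 Hoxa5 reads were all in the spleen library of the second VQ-D2 recipient. Hoxa5 was at least 56.3-fold lower in VQ-D1, at least 42.0-fold lower in VQ-D4 and at least 50.4-fold lower in VQ-D5 than in Control. In VQ-D2 its pooled ratio was 35.7-fold lower, with an adjusted p of 0.0182 in edgeR, which became 0.0667 without the spleen library of the first recipient. The Control libraries that hold these HOXA reads also hold the progenitor and neutrophil markers given above. The second Control library had the highest sums of both, 1213 and 7963 CPM. Its summed HOXA level was 12.6 CPM, against 22.3 and 19.15 CPM in the other Control libraries. Hoxa3, Hoxa5 and Hoxa6 were lowest in that library and Hoxa7 was highest. The part of those cells in the Control values was not tested.

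With counts summed per donor line, so that the 4 VQ donors are the replicates, 5 of 9 tested members fell against the 3 Control libraries and 0 rose, where 9.27% of all tested genes fell and 13.7% rose. They were Hoxa3, Hoxa5, Hoxa6, Hoxa7 and Hoxb4, with adjusted p of 0.00711, 0.0143, 0.00845, 0.00461 and 0.0235 in edgeR. The pooled ratio to Control was 123-fold lower for Hoxa3, 147-fold for Hoxa5, 75.2-fold for Hoxa6, 196-fold for Hoxa7 and 55.6-fold for Hoxb4. Since members with almost no VQ reads passed the count filter of this fit through Control, the counts are not to be read against those shares. This fit has no tissue term, and all Control libraries are bone marrow. DESeq2 called 9 members here, 1 higher and 8 lower, and leaving out the first Control library left 3. Hoxb4 was lost without any single Control library (adjusted p up to 0.0857 in edgeR) and Hoxa5 without the first or the third (up to 0.0560).

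Hoxa2 and Hoxa4, the members on either side of Hoxa3, were counted in t-VK12653 without meeting the rule. Hoxa2 had 9 reads in each library of the first t-VK12653 recipient and 1 read in each of the second, against 2, 1 and 1 reads in Control. Hoxa4 had 2, 17, 3 and 5 reads in t-VK12653, against 5, 0 and 1 reads in Control. Hoxa6 had 34 and 30 reads in the first t-VK12653 recipient and 11 and 13 in the second. No test between recipients was made.

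Hoxa9, the HOXA gene best known from leukaemia, was not on in any group. Its 4 t-VK12653 libraries held 2, 0, 0 and 0 reads, against 5, 11 and 1 reads in Control. The VQ libraries held 3 reads, all in VQ-D5. The Control library with 11 Hoxa9 reads also had the highest progenitor sum (1213 CPM) and the highest neutrophil sum (7963 CPM). The library with 5 reads had 464 and 2940 CPM, and that with 1 read had 716 and 3041 CPM. The part of those cells in the Hoxa9 reads was not tested.

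The HOXD genes on in t-VK12653 were Hoxd3, Hoxd4 and Hoxd8. Hoxd3, which with Hoxa3 patterns the upper cervical vertebrae, was at 14.2, 15.8, 9.15 and 16.1 CPM in t-VK12653, against 3.56, 1.02 and 2.36 CPM in Control. Hoxd4, which is used in the hindbrain, was at 7.08, 5.82, 3.73 and 3.83 CPM in t-VK12653, against 0.647, 0.341 and 1.05 CPM in Control. Hoxd8 was at 10.7, 14.7, 9.82 and 10.9 CPM in t-VK12653, against 0, 0 and 0.787 CPM in Control. For all 3 genes every t-VK12653 library exceeded every Control library.

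All 3 rose in t-VK12653. The log2 fold change was 2.23 (SE 0.61, adjusted p = 0.00498) for Hoxd3 and 2.71 (SE 0.77, adjusted p = 0.00682) for Hoxd4 by edgeR, and without the first t-VK12653 library the adjusted p of Hoxd4 was 0.0515. Hoxd8 had 3 reads in Control and its pooled ratio was 38.9 (95% counting interval 13.1 to 190, adjusted p = 0.000108 in edgeR). The exons of Hoxd3 and Hoxd4 share 388 bases and both share 347 with Hoxd3os1 on the opposite strand, and no source used here states whether strand was counted, so reads of these genes may be split between them.

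Per length in t-VK12653, Hoxd8 was at 10.6 ± 2.14 TPM, Hoxd3 at 9.40 ± 2.35 TPM and Hoxd4 at 4.05 ± 1.75 TPM (SD, n = 4), so that Hoxd8 and Hoxd3 lay within their spread of each other and of Hoxc4.

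In VQ-D1, Hoxd3 was at 1.48, 1.32, 0.289 and 1.81 CPM and Hoxd4 at 0.246, 0.987, 1.25 and 2.23 CPM, both overlapping Control and neither past the test against it (adjusted p = 0.0910 and 0.531 in edgeR). VQ-D1 was the only VQ line with more than 2 reads of either gene. Hoxd3 fell by at least 18.3-fold in VQ-D2 and at least 16.1-fold in VQ-D4, and in VQ-D5, with 2 reads, the ratio was 29.0-fold lower (7.16 to 254) and the call was lost without the second VQ-D5 library (adjusted p = 0.104 in edgeR). Hoxd4 had 0 reads in VQ-D2, VQ-D4 and VQ-D5, against 7 reads in Control, and its calls in those lines (adjusted p = 0.0193, 0.0282 and 0.0372 in edgeR) were lost under several of the alternatives. Hoxd8 was called lower in VQ-D1 (adjusted p = 0.0320 in edgeR) on 0 reads, against 3 reads in Control, which is too few for a fold. Hoxd9 was counted in VQ-D1 alone, with 7 reads in the second spleen library and 0 in the other 22 libraries.

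Hoxb13, the most posterior gene of its cluster and best known from prostate and colon, was on in VQ-D1. It was at 3.20, 2.80, 4.34 and 3.62 CPM there, at 0 CPM in all VQ-D2 libraries, at 0.503, 0.309, 0 and 0 CPM in VQ-D4, at 0, 0.458, 0.131 and 0.233 CPM in VQ-D5 and at 0.644, 0.376, 0.677 and 0.274 CPM in t-VK12653, against 0.647, 1.36 and 0.262 CPM in Control. The lowest VQ-D1 library exceeded every library of the other groups. The VQ-D1 libraries also had the stromal and endothelial marker sums above Control given earlier, and the part of such cells in the Hoxb13 level was not tested. The log2 fold change for VQ-D1 minus Control was 2.52 (SE 0.73, adjusted p = 0.00612 in edgeR). In VQ-D2 Hoxb13 fell, by at least 5.56-fold with an adjusted p of 0.0127 in edgeR, and in the other 3 lines it did not pass the test.

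A member was called line-high when it passed the test against each of the other 4 tumour lines. Hoxb13 was line-high in VQ-D1, as were 2.74% of all tested genes, with log2 differences of 3.67 (SE 0.82) to VQ-D4, 3.75 (SE 0.91) to VQ-D5 and 2.82 (SE 0.62) to t-VK12653. VQ-D2, with 0 Hoxb13 reads, gives no fold of its own there. With bone marrow libraries alone VQ-D2 has no library and VQ-D4 has 1, so VQ-D1 was compared with 3 lines. Hoxb13 then passed against VQ-D5 (3.90, adjusted p = 0.0138) and not against VQ-D4 (2.87, adjusted p = 0.123) or t-VK12653 (2.49, adjusted p = 0.0771), on the log2 scale by edgeR. In t-VK12653, 7 of the 10 tested members were line-high (Hoxa3, Hoxa5, Hoxa6, Hoxa7, Hoxd3, Hoxd4 and Hoxd8) beside 10.2% of all tested genes. In VQ-D2, VQ-D4 and VQ-D5 the count was 0 beside 4.75%, 5.39% and 8.42% of all tested genes, with DESeq2 too. A member that passed the count filter through the line where it is high favours a line-high call there. The counts are thus not to be read against those shares.

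Hoxb4, known for expanding haematopoietic stem cells when overexpressed, was on in Control only, by the rule. It was at 0 CPM in every library of VQ-D1, VQ-D2, VQ-D4 and t-VK12653 and at 0.478, 0.458, 0.131 and 0.116 CPM in VQ-D5, against 5.18, 2.72 and 2.62 CPM in Control. No tumour library overlapped Control. Hoxb4 was at least 31.9-fold lower in VQ-D1, 27.0-fold in VQ-D2, 23.8-fold in VQ-D4 and 19.1-fold in t-VK12653, and 14.3-fold lower (5.92 to 41.6) in VQ-D5. It fell in t-VK12653 (adjusted p = 0.00240), in VQ-D1 (0.000792), in VQ-D4 (0.00363) and in VQ-D5 (0.0189) by edgeR, and did not pass in VQ-D2 (adjusted p = 0.0821), also with 0 reads. The call in VQ-D5 was lost with DESeq2 (adjusted p = 0.194). By edgeR it was also lost with no filter (adjusted p = 0.170) and without each of 3 single libraries (up to 0.0866). The call in VQ-D4 was lost without the bone marrow library (adjusted p = 0.225 by edgeR). The Control libraries also held the progenitor and neutrophil markers given above, and the part of those cells in the Hoxb4 values was not tested.

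Other HOXB genes were counted at low levels in Control: Hoxb3 had 4, 4 and 0 reads, Hoxb7 had 4, 2 and 2 and Hoxb2 had 0, 5 and 0. The same genes had 0 reads in VQ-D2, VQ-D4 and t-VK12653. The remaining HOXB members, Hoxb1, Hoxb5, Hoxb6, Hoxb8 and Hoxb9, were off in all 6 groups.

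Against t-VK12653, the mean of the 4 VQ lines was lower for 8 of the 10 tested members and higher for 0, where 31.6% of all tested genes were lower and 29.6% higher. Members that passed the count filter through their level in t-VK12653 favour this direction, so the counts are not to be read against those shares. DESeq2 called 10 lower and 0 higher, and no member was higher at an unadjusted p under 0.05 in edgeR. The pooled ratio of the VQ libraries to t-VK12653 was 2278-fold lower for Hoxa7 (95% counting interval 629 to 18850), 297-fold for Hoxa3, 229-fold for Hoxd8, 171-fold for Hoxa6, 132-fold for Hoxa5, 42.9-fold for Hoxd3 and 14.4-fold for Hoxd4. Hoxc4 was also called, by a log2 difference of −2.47 (SE 0.35) in the mean over lines, while its pooled ratio was 1.37-fold lower: VQ-D2 and VQ-D5, near 0, carry that mean. The t-VK12653 side is 1 donor, so donor and genotype cannot be told apart.

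Stromal and endothelial markers, some of which mark cells that use HOX genes, summed to 9.76 to 13.3 CPM in the t-VK12653 libraries, below the 53.2 to 70.1 CPM of the Control libraries. Progenitor markers summed to 18.6 to 36.5 CPM in t-VK12653, against 464 to 1213 CPM in Control. VQ-D2, with the lowest HOX sums, also lay below Control in both marker sums.

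The site of the tumour was tested within the same fit. For spleen minus bone marrow, 0 of the 10 tested members passed, where 0.0% of all tested genes did, and for lymph node minus bone marrow 0 passed, where 0.0155% did. No member had an unadjusted p under 0.05 in either, while 829 and 886 of all genes did, and DESeq2 called 41 and 42 genes. Lymph node was sampled only in VQ-D2, VQ-D4 and VQ-D5, where Hoxc4 in VQ-D4 was the only member on. For the other tested members, with few or no reads in those lines, the lymph node test cannot decide. Hoxb4 had 0 reads in every line sampled from spleen, so spleen minus bone marrow cannot decide for it. For Hoxc4 the difference was 0.27 (SE 0.29) on the log2 scale for spleen minus bone marrow, and for Hoxa7 it was 0.04 (SE 0.30). For a difference in the effect of site between VQ-D1 and t-VK12653, the lines sampled alike, 0 of 9 tested members passed at an adjusted p under 0.05. Of all tested genes 0.0% passed by edgeR, 519 had an unadjusted p under 0.05 and DESeq2 called 6. In VQ-D1, Hoxa5, Hoxa6 and Hoxd8 had 0 reads and Hoxa3 and Hoxa7 had 1 read each, so the test cannot decide for these genes.

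Of the members on in no group, 11 were low or uneven somewhere, among them Hoxa2, Hoxa4, Hoxa9, Hoxb2, Hoxb3, Hoxb7 and Hoxd9. The other 18 were off in all 6 groups, 2 of them in HOXA, 5 in HOXB, 8 in HOXC and 3 in HOXD, and Hoxa13 and Hoxc10 had no read in any library. The 29 members on in no group gave 203 of the 3281 HOX reads, with at most 17 reads of any such member in a library. Being on in no group held for 74.4% of the members and for 45.1% of all listed genes. At these depths 3 reads over a group are worth 0.108 to 0.181 CPM in the tumour lines and 0.305 CPM in Control, so lower levels were not detectable.

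Non-coding RNAs of the clusters were followed from a list of 22, of which 14 are in the tables and 2 were tested. Mira (chromosome 6, 52214491 to 52215288), an RNA that activates Hoxa6 and Hoxa7 in mouse embryonic stem cells, lies 335 bases beyond the 3′ end of Hoxa7. It was at 8.72 ± 2.27 CPM in t-VK12653 (SD, n = 4), against 1.80 ± 1.39 CPM in Control (SD, n = 3), and rose (2.03 on the log2 scale, SE 0.70, adjusted p = 0.0185 by edgeR). The 16 VQ libraries held 7 Mira reads, and Mira fell in all 4 VQ lines.

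Hoxaas3 (chromosome 6, 52201124 to 52213597) runs opposite to Hoxa7 and Hoxa3 and shares 586 and 297 exonic bases with them. It was at 2.32 ± 1.04 CPM in t-VK12653 (SD, n = 4), against 1.75 ± 0.81 CPM in Control (SD, n = 3), with a log2 difference of −0.02 in edgeR (adjusted p = 0.947). It fell in all 4 VQ lines, which together held 1 read.

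Cofactors were described from a list of 9 PBX, MEIS and PREP genes, 7 of them tested. Against Control, 2 rose and 2 fell in VQ-D1, 2 and 4 in VQ-D2, 2 and 2 in VQ-D4, 1 and 4 in VQ-D5 and 1 and 4 in t-VK12653. Of all tested genes, 27.5% to 31.2% rose and 26.8% to 32.5% fell in these comparisons. The median log2 fold change of the 7 ran from −2.24 in VQ-D5 to 0.69 in VQ-D1, where the median of all tested genes was −0.044 and 0.024.

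Pbx3, a partner of HOX proteins on DNA, averaged 89.7 ± 7.41 CPM in VQ-D4, 70.1 ± 6.72 in t-VK12653, 65.9 ± 2.54 in VQ-D1, 26.2 ± 5.45 in VQ-D2 and 0.996 ± 0.622 in VQ-D5 (SD, n = 4 each), against 8.64 ± 2.57 CPM in Control (SD, n = 3). On the log2 scale it rose by 3.41 in VQ-D4, 2.996 in t-VK12653, 2.91 in VQ-D1 and 1.69 in VQ-D2 and fell by 2.95 in VQ-D5, all past the edgeR test. The 3 lines with Hoxc4 on had Pbx3 at 62.2 to 96.3 CPM in their libraries, and the 2 lines without it at 0.262 to 33.2 CPM.

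Meis1, which acts with HOXA9 in leukaemia, was at 0 CPM in all t-VK12653 libraries, against 4.77 ± 2.48 CPM in Control (SD, n = 3). It fell in t-VK12653, VQ-D1, VQ-D2 and VQ-D4, and in VQ-D5 it was at 4.03 ± 1.08 CPM (SD, n = 4), a log2 difference of 0.11 that did not pass (adjusted p = 0.895 in edgeR). Pknox1, the PREP1 gene, rose in VQ-D5 to 95.4 ± 6.01 CPM, against 45.3 ± 5.67 CPM in Control. It fell in VQ-D1, VQ-D4 and t-VK12653, with group means of 15.3 to 18.3 CPM.

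**Figure D4:**
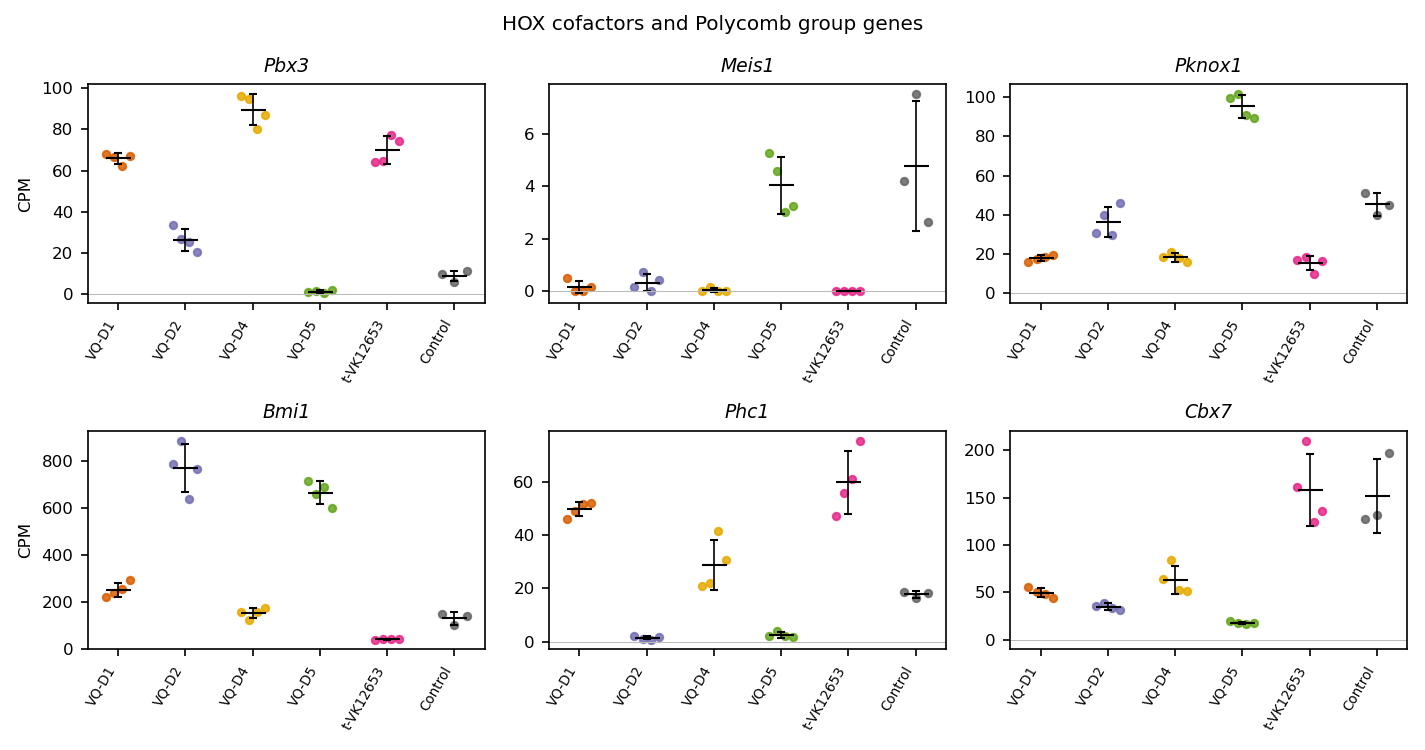
CPM of 3 HOX cofactor genes (top row) and 3 Polycomb group genes (bottom row), with 1 point per library and the mean ± SD of each group in black (n = 4 per tumour line, n = 3 for Control); each panel has its own linear axis. Pbx3 is at 62.2 to 96.3 CPM in the VQ-D1, VQ-D4 and t-VK12653 libraries, and Bmi1 is at 600 to 885 CPM in those of VQ-D2 and VQ-D5.

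Polycomb group genes, whose complexes keep HOX clusters silent, were described from a list of 15, all tested. Against Control, 3 rose and 4 fell in VQ-D1, 3 and 5 in VQ-D2, 2 and 6 in VQ-D4, 2 and 10 in VQ-D5 and 5 and 3 in t-VK12653. Of all tested genes, 27.5% to 31.2% rose and 26.8% to 32.5% fell in these comparisons. The median log2 fold change ran from −1.11 in VQ-D5 to 0.25 in t-VK12653, where that of all tested genes was −0.044 and 0.015. Bmi1, a core subunit of the PRC1 complex, averaged 768 ± 102 CPM in VQ-D2, 665 ± 48.4 in VQ-D5, 251 ± 31.4 in VQ-D1, 152 ± 20.2 in VQ-D4 and 41.5 ± 1.73 in t-VK12653 (SD, n = 4 each), against 130 ± 26.7 CPM in Control (SD, n = 3). It rose by 0.90 in VQ-D1, 2.54 in VQ-D2 and 2.38 in VQ-D5 and fell by 1.70 in t-VK12653 on the log2 scale, past the edgeR test, and did not pass in VQ-D4. The lines with the fewest HOX reads, VQ-D2 and VQ-D5, had the highest Bmi1 and the line with the most, t-VK12653, the lowest; this order over 5 lines was not tested.

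Phc1, another PRC1 subunit, rose in VQ-D1, VQ-D4 and t-VK12653, to means of 49.7, 28.8 and 59.8 CPM, and fell in VQ-D2 and VQ-D5, to 1.40 and 2.44 CPM, against 17.7 CPM in Control. Cbx7, a chromodomain subunit of PRC1, fell in the 4 VQ lines, by 1.38 in VQ-D4 to 3.02 in VQ-D5, and did not pass in t-VK12653 (log2 difference 0.05, SE 0.17). Ezh2, the methyltransferase of PRC2, lies outside the naming rule and was chosen after its values were seen: it was at 1.86 ± 1.62 CPM in VQ-D1, 92.8 ± 10.2 CPM in VQ-D2, 0.450 ± 0.612 CPM in VQ-D4, 22.2 ± 6.24 CPM in VQ-D5 and 60.1 ± 9.65 CPM in t-VK12653 (SD, n = 4 each), against 47.0 ± 11.8 CPM in Control (SD, n = 3).

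Genes that keep HOX clusters active were described from a list of 11 trithorax and CDX genes, 8 of them tested. Against Control, 2 rose and 5 fell in VQ-D1, 1 and 5 in VQ-D2, 2 and 5 in VQ-D4, 1 and 3 in VQ-D5 and 1 and 1 in t-VK12653, with medians of −0.57 in VQ-D4 to −0.06 in t-VK12653 (all tested genes 0.013 and 0.015). The shares of all tested genes were 27.5% to 31.2% higher and 26.8% to 32.5% lower. Kmt2a fell in all 5 lines, by 0.37 in t-VK12653 to 0.69 in VQ-D4 on the log2 scale. Kmt2b, a related methyltransferase, rose by 0.56 in t-VK12653 and fell in the 4 VQ lines. Dot1l, which methylates histone H3 within transcribed genes, rose in the 4 VQ lines by 0.46 to 0.93 and did not pass in t-VK12653. Kdm6b, a demethylase of the Polycomb mark, fell in VQ-D1, VQ-D2 and VQ-D5 and did not pass in VQ-D4 and t-VK12653.

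Genes next to the clusters were followed on a list of 14, of which 13 are in the tables and 9 were tested. Against Control, 6 rose and 1 fell in VQ-D1, 3 and 3 in VQ-D2, 2 and 4 in VQ-D4, 3 and 2 in VQ-D5 and 2 and 3 in t-VK12653, with medians from 0.00039 in t-VK12653 to 0.43 in VQ-D1 (all tested genes 0.015 and 0.024). The shares of all tested genes were 27.5% to 31.2% higher and 26.8% to 32.5% lower. Skap1, a T cell adaptor gene that starts 96.3 kb beyond Hoxb1 on chromosome 11, was at 14.9 ± 4.28 CPM in VQ-D1 (SD, n = 4), against 2.30 ± 1.98 CPM in Control (SD, n = 3), and rose there (log2 fold change 2.94, SE 0.64, adjusted p = 0.000655 in edgeR). It fell in the other 4 tumour lines, where group means were 0 to 0.291 CPM. VQ-D1 was thus the line in which Hoxb13 and Skap1, at opposite ends of the HOXB cluster, both rose. T and NK cell markers summed to 2.96 to 6.54 CPM in the VQ-D1 libraries, against 57.3 to 84.1 CPM in Control.

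The other named neighbours were called in all 5 tumour lines. Mtx2, next to HOXD, rose in all 5 tumour lines by 0.82 to 1.36 on the log2 scale, whether Hoxd3 and Hoxd8 rose (t-VK12653) or had 0 reads (VQ-D2 and VQ-D4). Cbx5, a heterochromatin protein gene on the chromosome of HOXC, rose in VQ-D1, VQ-D2 and VQ-D5 by 0.43 to 1.57, and it fell in VQ-D4 (−0.47) and t-VK12653 (−0.39). Hnrnpa2b1, an RNA-binding protein gene near HOXA, rose in VQ-D1, VQ-D2 and VQ-D5 by 0.49 to 0.68 on the log2 scale, and it fell in VQ-D4 (−0.42) and t-VK12653 (−0.48).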

How the data were processed

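Total RNA was sequenced from 23 libraries of sorted cells. Per the labels' protocols, RNA was isolated with an RNeasy Micro Kit and libraries with a SMARTer Stranded Pico Input kit. The submitters' processing notes list the tools STAR, featureCounts and DESeq2 with the builds GRCm38 and mm10, and neither annotation nor strand setting is stated in the labels. Each deposited table has, per the file headers, a read count, an FPKM and a TPM per gene symbol. The authors' counts are whole and unnormalized and were used for all tests. The deposited TPM served to compare levels between genes, and the deposited FPKM served to work out gene lengths.

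Analysis used R 4.3.3, edgeR 4.0.16 (robust quasi-likelihood F-test, TMM scaling, filterByExpr with count minimum 10 and total minimum 15, Benjamini-Hochberg adjustment over all tested genes, threshold 0.05) and DESeq2 1.42.0 as an alternative. CPM values are TMM-scaled. Libraries were grouped by their titles. Group and tissue were terms of the main fit. Each SE is the absolute log2 difference divided by the square root of the edgeR F statistic. It is not a fitted standard error and is unreliable for very small differences. A group at 0 reads was bounded at 3 reads per group, and 95% intervals for ratios of reads come from an exact binomial test. Intervals and bounds cover counting error only, and p-values measure the spread between libraries, which for a tumour line is within 1 donor. Libraries of a group differed by more than sampling noise in every pair (chi-square divided by its degrees of freedom, 4.57 to 22.3). The members and the gene lists were chosen with earlier results of these data known. Every member on in at least 1 group was named, and of each other list up to 4 genes, those called in the most line comparisons, then by fold change. The fits were tested on simulated counts. Alternatives were another scaling, DESeq2, no filter, bone marrow only, sums per recipient, a replicate block, other thresholds for a gene being on, and leaving out each library. Results for a few single genes are not reported here.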

Additional observations from a re-analysis of the deposited data

Results flagged for a closer look

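Of 16 sets of 4 libraries checked for a library far from the rest, 3 were picked out, and chance picks about 1 in 20. The 3 cannot be counted against that rate. Both VQ-D4 picks are the same library, and Hoxc4 gave 473 of the 487 HOX reads of that line. The liver library of VQ-D4 stood apart for Hoxc4, at 31.8 CPM against 18.4 to 20.1 CPM in the other 3, with a gap to the nearest of 0.872 of the range. The same library stood apart for the summed HOX level, at 32.3 CPM against 18.8 to 20.1 CPM, with a gap of 0.908 of the range. It is the only liver library, and its stromal and endothelial markers summed to 748 CPM. The spleen library of the second VQ-D2 recipient stood apart for the summed HOX level, at 3.62 CPM against 0 to 0.215 CPM in the other 3, with a gap of 0.940 of the range. Its 25 reads lay in 12 members, with at most 7 in any of them.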

How the results depend on the processing

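Of 496 alternative values for the 22 counts of members, 489 lay within 1.5 times the main count. The exceptions were these. Without the second VQ-D5 library, 4 members were called for VQ-D5 minus Control in place of 7 (4 to 7 over all left-out libraries). For VQ line sums minus Control, DESeq2 called 9 in place of 5, and leaving out a library gave 3 to 5. With bone marrow only, and so against 3 lines in place of 4, 0 members were line-high in VQ-D1 in place of 1. With on set at 5 CPM, 1 member was on in VQ-D1, 4 in t-VK12653 and 0 in Control, in place of 2, 8 and 5. Of 1408 alternative values for 49 calls of single genes, 35 missed the threshold and none changed sign. Hoxd4 was lost most often: without single libraries its adjusted p by edgeR reached 0.0601 in VQ-D2, 0.167 in VQ-D4 and 0.116 in VQ-D5. The fall of Hoxd8 in VQ-D1 rests on 3 Control reads and was lost without that library. The cause was not tested. Over all genes, VQ line sums minus Control gave 3192 calls, and 1148 to 1226 without single Control libraries. VQ lines minus t-VK12653 gave 7870 calls, and 4906 with bone marrow only.

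The replicate numbers did not pair the samples: over 55 pairs with the same number, deviations correlated at −0.222 to 0.142. With a replicate block, 8, 5, 7, 6 and 6 members were called against Control for D1, D2, D4 and D5 of the VQ lines and for t-VK12653, in place of 8, 7, 8, 7 and 6, and the adjusted p of Hoxb13 in VQ-D2 was 0.0527 by edgeR. Depth limits the genes with few reads, since 3 reads in Control are worth 0.305 CPM.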
